A study of Mus musculus with 6 samples.

Results

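Transcripts of 36 genes, the Myc family genes Myc and Mycn together with 34 genes whose products build ribosomes or supply their nucleotides, were followed in LSK cells, the Lin-Sca-1+c-kit+ fraction of mouse bone marrow, which holds stem cells and early progenitors. The genes were taken by symbol from a fixed list, and all 36 were found among the 48395 rows of the count tables, Utp4 under its older symbol Cirh1a; all 36 also passed the filter on low counts, as did 16739 genes in total. Of 6 libraries, 3 were labelled Jak2VF/+ Hmga2 and 3 Jak2VF/+ vector. Donor marrow in both groups came from Mx1Cre; Jak2V617F/+ mice primed with 5-fluorouracil and carried one activated copy of Jak2, a kinase that carries signals of blood cell cytokines; it was transduced with lentivirus carrying Hmga2 in one group and the empty vector in the other. Recipients were C57BL/6 mice irradiated with 2 doses of 550 cGy, and marrow was taken 32 weeks after transplantation. The Mx1 promoter that drives Cre responds to interferon and acts in many cell types. The sources used here do not give the age or sex of the mice, the share of donor cells, or whether a library pooled animals.

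Ribosomes are made in the nucleolus, where RNA polymerase I copies the ribosomal DNA into a long precursor RNA, small nucleolar ribonucleoproteins (snoRNPs) modify it, and separate sets of factors cut and fold it into the small and the large subunit. MYC is a transcription factor that binds, with its partner MAX, to the DNA sequence CACGTG, called an E-box, and many genes of this pathway are known MYC targets. Cells that leave quiescence and divide need more of these factors; in marrow, stem cells are mostly quiescent while progenitors cycle.

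Total counts were 24818011 to 35471806 per library, which put 726 to 64194 reads behind each value given for the 36 genes. Levels are in CPM, the count of a gene scaled to the size of its library with trimmed mean of M-values factors. The gene that the label names was not higher in the libraries that carry the label: Hmga2 was at 2.63, 6.63 and 5.91 CPM in libraries labelled Hmga2, against 5.96, 5.04 and 7.03 CPM in vector libraries (log2 fold change -0.25 ± 0.35, standard error, SE; p = 0.6 by an exact permutation test, two-sided, in a design whose smallest p is 0.1). The sources used here do not say whether transcripts from the lentivirus were counted under Hmga2, so the group is named by its label throughout. Jak2 was at 87.6, 71.9 and 72.4 CPM in libraries labelled Hmga2, against 73, 61.7 and 57.9 CPM in vector libraries. Of the sort markers, Kit was at 345 to 375 CPM in the libraries labelled Hmga2 and 248 to 354 CPM in the vector libraries, and Ly6a, which encodes Sca-1, at 32.2 to 45.5 CPM in libraries labelled Hmga2 and 19.3 to 59.1 CPM in vector libraries. The T cell gene Cd3e was listed at 0 in all 3 libraries labelled Hmga2 and in 1 vector library. In vector replicates 1 and 3 it was at 0.032 and 0.0403 CPM, under 3 reads, so it shows no difference between groups. Of 5 listed T cell genes, 1 passed the count filter, and its log2 fold change was 0.43 with overlapping groups.

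None of the 36 genes passed the test over all genes. The 34 genes other than Myc and Mycn nevertheless had fitted levels in the libraries labelled Hmga2 that were all below those in the vector libraries, by small amounts: they stood at 79.3% to 97.2% of the vector level, with a median of 87.7%. The quasi-likelihood F test of edgeR, with Benjamini-Hochberg adjustment over 16739 genes and a threshold of 0.05, called 0 of the 36, as it called 0 genes anywhere (background 0%); adjusted p-values of the 36 ran from 0.855 to 0.994. DESeq2 called 0 of the 36 too (smallest adjusted p = 0.269), beside 0.371% of genes called with lower and 0.0538% with higher levels in the libraries labelled Hmga2. At an unadjusted p under 0.05, edgeR had 935 genes, or 5.59% of all; 10 of the 36 had such a p with a lower level (background 3.36%) and 0 with a higher one (background 2.23%). Every library labelled Hmga2 lay below every vector library for 15 of the 36 (background 5.88%), and the reverse held for 0 (background 5.28%).

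The log2 fold change was below 0 for 34 of the 36, beside 49.6% of all genes, and its median was -0.18, beside 0.00 over all genes tested. Leaving out the replicate 2 library labelled Hmga2 gave a median of -0.11, with 31 of 36 below 0 and 2 at an unadjusted p under 0.05 with a lower level, near the 3.54% of all genes in that fit; leaving out 1 of the other libraries in turn, the median lay between -0.23 and -0.16. Of the 34 genes, 20 came nearer to 0 by over 1.5 times without Hmga2 replicate 2, 8 without vector replicate 3 and 3 without vector replicate 2. Most of the 34 genes also went up and down together over the 6 libraries. The correlation of each with the median of the other members over the 6 libraries ran from 0.48 to 1.00, with a median of 0.875. It was lowest for Gar1 (0.48) and Utp20 (0.52), and no such value was computed for other genes. All genes of a library share its depth and cell make-up, which differed between libraries. The 34 genes are therefore not 34 separate observations. In bulk RNA, fewer cells of a type and less RNA per cell cannot be told apart.

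**Figure D1:**
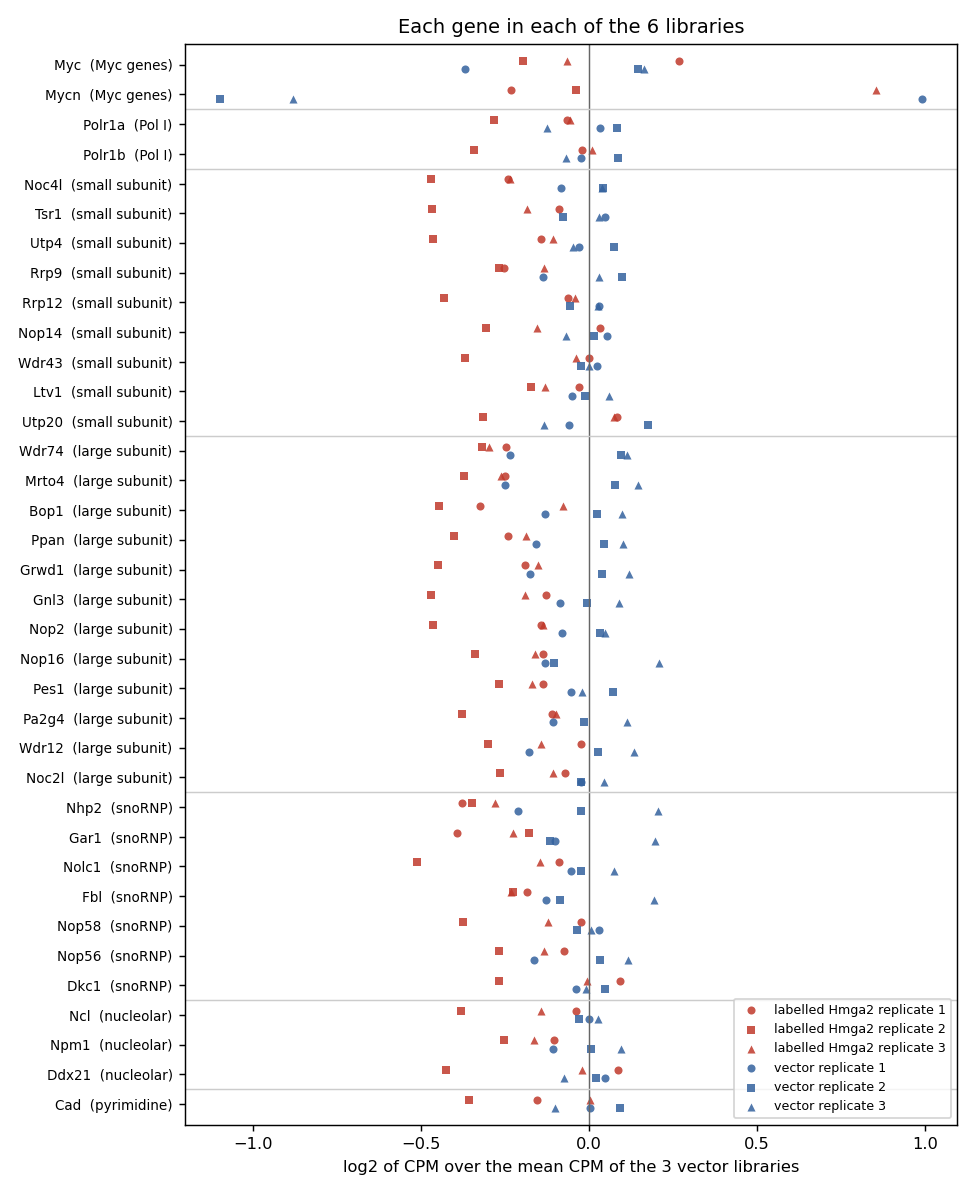
Level of each of the 36 genes in each library, as log2 of its CPM over the mean of the 3 vector libraries, with genes grouped by role. The square of replicate 2 labelled Hmga2 is the lowest point for 31 genes, while the points of Myc and Mycn do not separate by group.

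Myc itself showed no difference between the groups beyond its spread. Its transcript, from a gene on chromosome 15 (61985391 to 61990374, mm10), was at 583, 422 and 462 CPM in libraries labelled Hmga2, against 374, 535 and 542 CPM in vector libraries. The highest library was replicate 1 labelled Hmga2 and the lowest was vector replicate 1, and the ranges of the groups overlapped over most of their length. The log2 fold change was 0.02 ± 0.18 (SE), and its 95% interval of -0.41 to 0.44 spans both a lower and a higher level (adjusted p = 0.994, edgeR). Its sign changed with 1 library: it was -0.13 without Hmga2 replicate 1 and -0.14 without vector replicate 1. Myc thus stood apart from the 34 other genes in sign, but its interval contains their median, and the difference between them was not tested.

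Mycn, the paralog that haematopoietic stem cells express beside Myc, varied most of the 36 between replicates. It was at 50.8, 58.1 and 108 CPM in libraries labelled Hmga2, against 119, 27.9 and 32.4 CPM in vector libraries. Vector replicate 1 and Hmga2 replicate 3 were high, while vector replicates 2 and 3 were the lowest. The log2 fold change of 0.27 carried an SE of 0.58 and a 95% interval of -1.10 to 1.64 (adjusted p = 0.955, edgeR). It was 1.26 without vector replicate 1 (adjusted p = 0.424), and -0.13 without Hmga2 replicate 3.

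**Figure D2:**
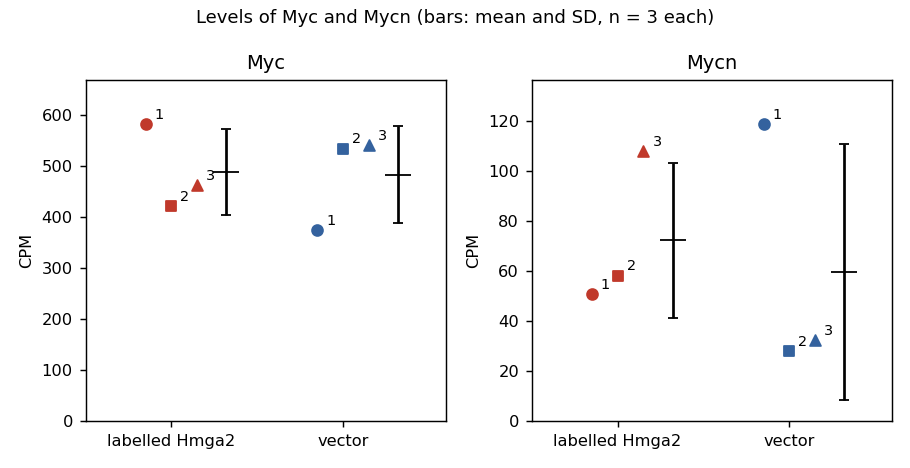
CPM of Myc and Mycn in each library, numbered by replicate, with the mean and SD of each group (n = 3 each). Myc overlaps between groups at 489 ± 83.6 CPM in the libraries labelled Hmga2 and 484 ± 94.9 CPM in the vector libraries, and Mycn spans 27.9 to 118.9 CPM.

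The E-box was looked for around the starts of the 36 genes, since it is the sequence MYC is known to bind. RefSeq promoter windows on GRCm38.p6, of 250 bases before the start and 50 from it on, were at hand for 31 of the 36. The letters CACGTG, which read the same on both strands, occurred in the windows of 8 of the 31, or 25.8%, beside 11.4% of 11011 tested genes with a window and 8.09% of all 27025 genes with one. Among other ribosome biogenesis factors it was in 14 of 93 windows, or 15.1%. In 7 of these 8 genes the E-box lay within the 50 bases from the start on. That was 22.6% of the 31, beside 1.97% of the tested genes. The rule for printing sequences had asked for an E-box before the start, so this stretch was singled out with the hits known. The contrast was therefore not tested and carries no weight of its own. The exception was Nop2, whose E-box began 60 bases before the start. All 8 are shown with the bases around them, on the gene's strand from 5′ to 3′, with the E-box in capitals.
Pes1: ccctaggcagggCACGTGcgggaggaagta
Nop2: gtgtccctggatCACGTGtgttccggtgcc
Grwd1: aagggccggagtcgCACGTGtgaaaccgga
Tsr1: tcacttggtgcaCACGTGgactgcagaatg
Utp4: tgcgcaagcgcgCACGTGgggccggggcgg
Ltv1: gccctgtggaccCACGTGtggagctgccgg
Wdr43: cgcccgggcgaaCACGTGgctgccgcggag
Utp20: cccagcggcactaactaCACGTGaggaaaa

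On GRCm38.p6 the stretches lie at chr11:3963965-3963994 for Pes1, chr6:125131811-125131840 for Nop2, chr11:74898092-74898121 for Tsr1, chr8:106893643-106893672 for Utp4 and chr17:71616220-71616249 for Wdr43, all on the plus strand. On the minus strand they lie at chr7:45830740-45830769 for Grwd1, chr10:13193092-13193121 for Ltv1 and chr10:88826765-88826794 for Utp20. The E-boxes after the start began 2 bases from it in Pes1, 15 in Utp4, 17 in Wdr43, 24 in Tsr1, 28 in Ltv1, 34 in Grwd1 and 37 in Utp20. The related letters CACGCG, searched on both strands, were in 7 windows, or 22.6%, beside 32.3% of the other ribosome biogenesis factors and 19.1% of tested genes. The median log2 fold change was -0.21 for the 8 genes with an E-box and -0.18 for the others with a window; that difference was not tested. A match of letters is no evidence of binding, and no binding was measured here.

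RNA polymerase I was represented by its large catalytic subunits. Polr1a, the largest of them, was at 114, 98.3 and 115 CPM in libraries labelled Hmga2, against 122, 127 and 109.7 CPM in vector libraries. Polr1b was at 119.5, 95.6 and 122 CPM in libraries labelled Hmga2, against 119, 129 and 116 CPM in vector libraries. Hmga2 replicate 2 was the lowest library for both, and the other libraries of the groups were intermixed, with log2 fold changes of -0.13 and -0.11 (standard errors 0.09 and 0.11).

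Small-subunit factors were 9 in number, all with a log2 fold change below 0 (median -0.17). With a lower level, 2 had an unadjusted p under 0.05 in edgeR (background 3.36%) and 3 had groups that did not overlap (background 5.88%). Noc4l, whose product joins NOP14 in maturing the small subunit, had the smallest p of all 36. It was at 99.5, 84.8 and 99.8 CPM in libraries labelled Hmga2, against 111, 121 and 121 CPM in vector libraries. All libraries labelled Hmga2 were below all vector libraries, at a log2 fold change of -0.31 ± 0.09 (SE) and an interval of -0.52 to -0.10 (unadjusted p = 0.00969, adjusted p = 0.855, edgeR). Its partner Nop14 was at 92.7, 73.3 and 81.3 CPM in libraries labelled Hmga2, against 94, 91.5 and 86.4 CPM in vector libraries. There the groups overlapped, since Hmga2 replicate 1 was above 2 of the vector libraries.

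Rrp9, a protein particular to the U3 snoRNP that guides the early cuts, was at 61.8, 61.1 and 67 CPM in libraries labelled Hmga2, against 66.9, 78.7 and 75.2 CPM in vector libraries. The groups overlapped only by Hmga2 replicate 3 and vector replicate 1, which were nearly equal. Utp4, of the early complex that joins the new precursor RNA, was at 89.1, 71.4 and 91.5 CPM in libraries labelled Hmga2, against 96.5, 104 and 95.2 CPM in vector libraries. Tsr1, which fills the place of a translation factor on the immature small subunit, was at 122, 93.9 and 114 CPM in libraries labelled Hmga2, against 134, 123 and 132 CPM in vector libraries. Neither Utp4 nor Tsr1 overlapped between groups, and their log2 fold changes were -0.23 and -0.24, with an SE of 0.11 for each. The export factors Ltv1 and Rrp12 had log2 fold changes of -0.11 and -0.17, and Wdr43, another early factor, had -0.13. Without Hmga2 replicate 2 these were -0.08 for Ltv1, -0.05 for Rrp12 and -0.02 for Wdr43, and without vector replicate 3 Ltv1 was at -0.07.

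Utp20, a very large scaffold of the small-subunit precursor, was nearest to no difference among these factors. It was at 93.9, 71.2 and 93.5 CPM in libraries labelled Hmga2, against 85.1, 100.2 and 80.9 CPM in vector libraries. Hmga2 replicates 1 and 3 were above vector replicates 1 and 3, and the log2 fold change of -0.04 turned to 0.08 without Hmga2 replicate 2 and to 0.06 without vector replicate 2.

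Large-subunit factors were 12 in number, all below 0 with a median of -0.25. With a lower level, 6 had an unadjusted p under 0.05 in edgeR (background 3.36%) and 7 had groups that did not overlap (background 5.88%). Ppan, the counterpart of a yeast protein that helps fold large-subunit RNA, was at 149, 133 and 155 CPM in libraries labelled Hmga2, against 158, 181 and 189 CPM in vector libraries. Wdr74 was at 65.9, 62.8 and 63.7 CPM in libraries labelled Hmga2, against 66.5, 83.5 and 84.7 CPM in vector libraries. In both, the lowest vector library was replicate 1, which came close to the libraries labelled Hmga2. The log2 fold changes were -0.27 and -0.29, with standard errors of 0.10 and 0.11 (adjusted p = 0.855 for each, edgeR). Mrto4, which holds the place of the stalk protein P0 on the immature subunit, had its groups overlap. It was at 91.9, 84.3 and 91 CPM in libraries labelled Hmga2, against 91.7, 115 and 121 CPM in vector libraries, so that vector replicate 1 lay among the libraries labelled Hmga2.

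PES1, BOP1 and WDR12 form the PeBoW complex, which is needed to mature the large-subunit RNA. Pes1 was at 184, 168 and 179.7 CPM in libraries labelled Hmga2, against 195, 213 and 199.5 CPM in vector libraries. Bop1 was at 136, 125 and 162 CPM in libraries labelled Hmga2, against 156, 173 and 183 CPM in vector libraries. Wdr12 was at 132, 109 and 121 CPM in libraries labelled Hmga2, against 119, 137 and 147 CPM in vector libraries. Only Pes1 of these had groups that did not overlap. The log2 fold changes were -0.19 for Pes1, -0.27 for Bop1 and -0.15 for Wdr12, with standard errors of 0.07, 0.11 and 0.11, and the differences among the 3 subunits were not tested.

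Gnl3 encodes nucleostemin, a nucleolar GTPase abundant in stem and progenitor cells. It was at 188, 148 and 179.5 CPM in libraries labelled Hmga2, against 193, 204 and 218 CPM in vector libraries, with a log2 fold change of -0.26 and a standard error of 0.11. All libraries labelled Hmga2 were below all vector libraries, and its profile over the 6 libraries was the one closest to the median of the other members (correlation 1.00). Nop2, an RNA methyltransferase, was at 162, 129.8 and 163 CPM in libraries labelled Hmga2, against 169, 183 and 185 CPM in vector libraries. Its groups did not overlap either. Grwd1, a chaperone of a ribosomal protein, had a log2 fold change of -0.26, Nop16 -0.21, Noc2l -0.15 and Pa2g4, a growth-regulating protein that binds ribosomes, -0.19.

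The snoRNP genes fall into the proteins of the box C/D particles, which methylate ribosomal RNA, and those of the box H/ACA particles, which convert uridine to pseudouridine. All 7 were below 0 with a median of -0.21. With a lower level, 2 had an unadjusted p under 0.05 in edgeR (background 3.36%) and 4 had groups that did not overlap (background 5.88%). Nhp2, of the H/ACA core, was at 116, 119 and 125 CPM in libraries labelled Hmga2, against 130.5, 149 and 174 CPM in vector libraries. Its log2 fold change of -0.33 (standard error 0.11, interval -0.60 to -0.07, adjusted p = 0.855, edgeR) was the furthest from 0 of the 34. Without vector replicate 3, the highest library, it was -0.21, while it was -0.33 without Hmga2 replicate 2. Gar1, of the same core, was at 70.1, 81.3 and 78.6 CPM in libraries labelled Hmga2, against 85.7, 84.9 and 105 CPM in vector libraries. For both genes replicate 1, not replicate 2, was the lowest library labelled Hmga2.

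Dkc1, the pseudouridine synthase that NHP2 and GAR1 accompany, was at 216, 169 and 202 CPM in libraries labelled Hmga2, against 198, 209.8 and 202 CPM in vector libraries. Hmga2 replicate 1 was the highest of all 6 libraries, and the log2 fold change was -0.05 ± 0.10 (SE). Nop10, which completes the H/ACA core and was not among the 36, was at 140 ± 9.22 CPM in libraries labelled Hmga2 and 156 ± 26.8 CPM in vector libraries (SD, n = 3 each). In the C/D core, the methyltransferase gene Fbl was at 174, 169 and 168 CPM in libraries labelled Hmga2, against 181, 186 and 226 CPM in vector libraries. Its groups did not overlap. Nop56 and Nop58, the scaffold genes of the same core, had log2 fold changes of -0.16 and -0.17, beside -0.21 for Fbl, with standard errors of 0.10, 0.10 and 0.10. Without vector replicate 3, Fbl was at -0.10 and Nop56 at -0.09, and without Hmga2 replicate 2 Nop58 was at -0.07. Nolc1, which brings snoRNPs to the nucleolus, had -0.24, or -0.12 without Hmga2 replicate 2, and groups that did not overlap.

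Nucleolin, Ncl, packs the precursor RNA in the nucleolus. It was at 1814, 1430 and 1688 CPM in libraries labelled Hmga2, against 1864, 1825 and 1898 CPM in vector libraries. The groups did not overlap, but Hmga2 replicate 1 came close to vector replicate 2, and the log2 fold change was -0.18 ± 0.12 (SE). Nucleophosmin, Npm1, a histone and ribosome chaperone, was at 1585, 1428 and 1520 CPM in libraries labelled Hmga2, against 1581, 1708 and 1818 CPM in vector libraries. Its groups overlapped by Hmga2 replicate 1 and vector replicate 1. Npm1 has processed copies in the mouse genome, and the way shared reads were divided between such copies is unknown, so its level is uncertain. Ddx21, a helicase that links polymerase I transcription with RNA processing, had a log2 fold change of -0.10 ± 0.14 (SE), which turned to 0.03 without Hmga2 replicate 2.

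Cad, the enzyme of the opening steps of pyrimidine synthesis and a known MYC target, was at 254, 220.5 and 283 CPM in libraries labelled Hmga2, against 283, 301 and 263 CPM in vector libraries. Hmga2 replicate 3 was as high as vector replicate 1, and the log2 fold change was -0.16 ± 0.11 (SE). Of 25 other genes of nucleotide and folate metabolism, 20 were below 0 and 5 above, with a median of -0.08, and 0 passed in edgeR. Mthfd2, a mitochondrial folate enzyme, was at 43.3, 32.9 and 45 CPM in libraries labelled Hmga2, against 57.2, 58.4 and 60.8 CPM in vector libraries. The groups did not overlap, at a log2 fold change of -0.54 ± 0.13 (SE). Mthfd2 was the 1 gene of the 25 that passed in DESeq2 (adjusted p = 0.0489, background 0.371%), against adjusted p = 0.855 in edgeR. Mthfd1, its cytosolic relative, was at 213 ± 25.7 CPM in libraries labelled Hmga2 and 269 ± 24.9 CPM in vector libraries (SD, n = 3 each), and the nucleoside diphosphate kinase gene Nme1 at 129 ± 2.59 CPM in libraries labelled Hmga2 and 160 ± 26.6 CPM in vector libraries (SD, n = 3 each). Ctps2, a CTP synthase gene, was on the other side, at 80.3 ± 4.32 CPM in libraries labelled Hmga2 and 69.6 ± 3.96 CPM in vector libraries (SD, n = 3 each).

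**Figure D3:**
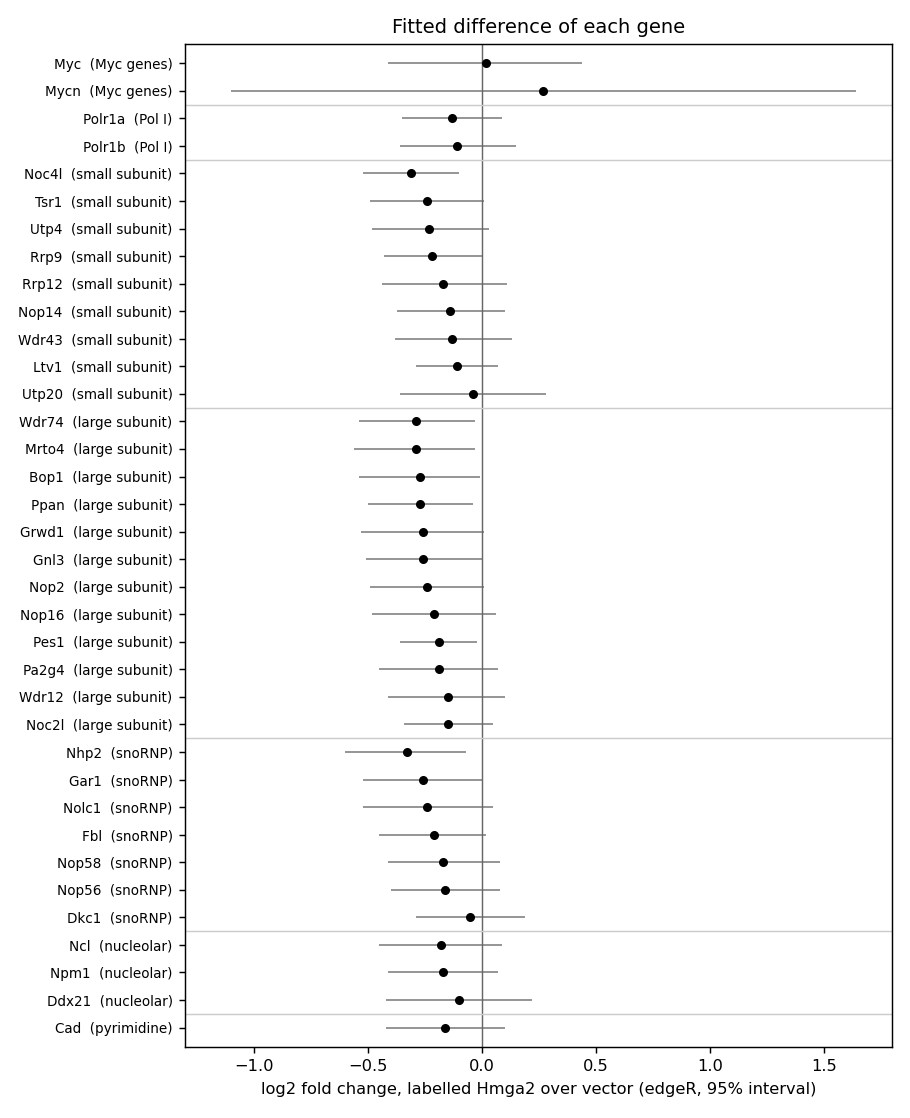
Fitted log2 fold change of each of the 36 genes, libraries labelled Hmga2 over vector libraries, with its 95% interval from edgeR. The 34 genes other than Myc and Mycn lie between -0.33 and -0.04, and the interval of Mycn, -1.10 to 1.64, is the widest.

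Per length of merged exons, Npm1 was the most abundant of the 36, at 567 CPM per kb in the libraries labelled Hmga2 and 638 CPM per kb in the vector libraries. Pa2g4 followed at 213 CPM per kb in libraries labelled Hmga2 and 243 in vector libraries. Myc stood at 180 CPM per kb in libraries labelled Hmga2 and 178 in vector libraries, close to Ncl at 161 in libraries labelled Hmga2 and 183 in vector libraries. The lowest level was that of Utp20, at 8.45 CPM per kb in libraries labelled Hmga2 and 8.70 in vector libraries, next to Polr1a at 9.18 in libraries labelled Hmga2 and 10.1 in vector libraries. These lengths join the exons of every annotated transcript, so genes with long rare transcripts are placed too low. In the annotation (GENCODE M21), 14 of the 36 had exons that overlap a gene on the opposite strand, such as Nhp2 with Rmnd5b, Bop1 with Mroh1 and Dkc1 with Mpp1. The sources used here do not give the strand setting of the counting, so reads of such pairs may not be told apart.

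Some of the 36 genes carry guide RNA genes of the same machinery within their own bounds. In the same annotation, snoRNA genes lay within 8 of the 36, on the same strand, and numbered 23. That was 22.2% of the 36, beside 1.68% of 13054 tested protein-coding genes. Nop56 held 5, Nop58 held 4, Ncl, Wdr43 and Gnl3 held 3 each, Ppan and Tsr1 held 2 each and Dkc1 held 1. The median log2 fold change was -0.17 for the 8 host genes and -0.19 for the members that host none, a difference that was not tested. The snoRNAs themselves were not examined.

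Of 110 further ribosome biogenesis factors, a list that was also chosen with earlier results of these data known, 99 had a log2 fold change below 0 and 11 above it, with a median of -0.11; 0 passed in edgeR and 0 in DESeq2. At an unadjusted p under 0.05, 6 of the 110 were lower, not far from the background of 3.36% of all genes. Groups did not overlap for 14, all with lower levels in the libraries labelled Hmga2 (background 5.88%). Without Hmga2 replicate 2 the median was -0.06, with 86 below 0. By process, the medians were -0.09 for 12 polymerase I genes, -0.12 for 39 small-subunit factors, -0.12 for 48 large-subunit factors and -0.10 for 11 snoRNP factors. Bysl, which acts late on the small subunit, was at 67.1, 54 and 61.3 CPM in libraries labelled Hmga2, against 73.9, 78.3 and 80 CPM in vector libraries (log2 fold change -0.35, standard error 0.10, adjusted p = 0.855, edgeR). Nmd3, the adaptor that exports the large subunit, was at 39.4 ± 4.89 CPM in libraries labelled Hmga2 and 49.2 ± 2.16 CPM in vector libraries (SD, n = 3 each). Nufip1, an assembly factor of C/D snoRNPs, was at 37.2 ± 3.03 CPM in libraries labelled Hmga2 and 44.1 ± 2.13 CPM in vector libraries (SD, n = 3 each).

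The network of MYC partners and antagonists differed from these factors in its counts of signs, a difference that was not tested. Of 19 genes tested, 13 were above 0 and 6 below, with a median of 0.07, and 0 passed in either tool. At an unadjusted p under 0.05, edgeR had 0 of them in either direction. Groups did not overlap for 2 with lower levels (background 5.88%) and 1 with a higher one (background 5.28%). Mlx, which encodes a MAX-like protein, was at 31.9 ± 1.56 CPM in libraries labelled Hmga2 and 38 ± 4.39 CPM in vector libraries (SD, n = 3 each), with groups that did not overlap. The antagonist gene Mxd4 was at 101 ± 15.6 CPM in libraries labelled Hmga2 and 87.3 ± 4.41 CPM in vector libraries (SD, n = 3 each). The helicase genes Ruvbl1 and Ruvbl2, whose products bind MYC and also assemble snoRNPs, had log2 fold changes of -0.17 and -0.17.

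**Figure D4:**
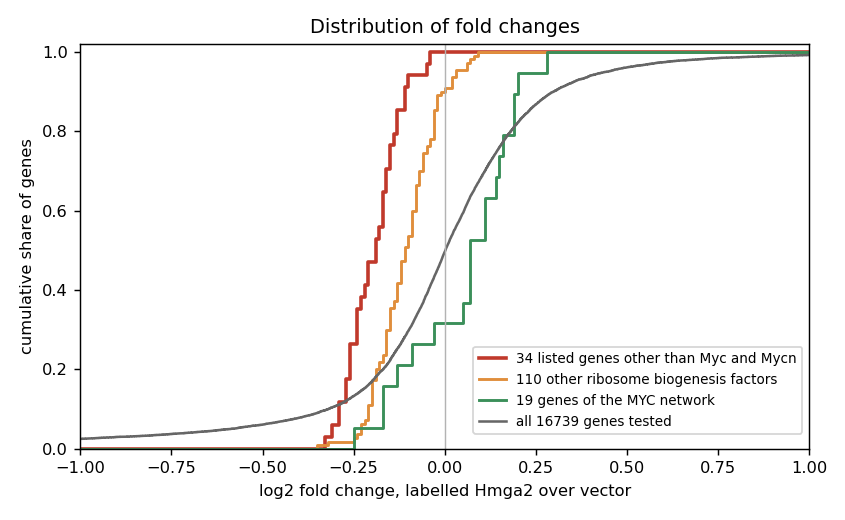
Cumulative share of genes by log2 fold change, libraries labelled Hmga2 over vector libraries, for the 34 genes other than Myc and Mycn, 110 other ribosome biogenesis factors, 19 genes of the MYC network and all 16739 genes tested. The curve of the 34 is complete below 0, with a median of -0.19, and that of all genes crosses 0 midway.

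Across libraries, the members' median level, on the log2 CPM scale and relative to the mean of each gene, was 0.00, -0.25 and -0.04 in Hmga2 replicates 1, 2 and 3, against 0.04, 0.11 and 0.16 in vector replicates 1, 2 and 3. The groups did not overlap in this median, but Hmga2 replicate 1 and vector replicate 1 differed by less than the vector libraries did among themselves. Hmga2 replicate 2 was the lowest library for 31 of the 36 genes, and vector replicate 3 the highest for 19. The 36 genes took 0.962%, 0.812% and 0.947% of counts in Hmga2 replicates 1, 2 and 3, against 0.984%, 1.01% and 1.01% in the vector libraries.

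Other gene lists also differed between libraries, and whether they followed the members was not tested. Of 9 tested granulocyte marker genes, 9 were below 0 (median -1.50, range -3.18 to -0.51). The gene furthest from 0 was at low levels, 0.254 ± 0.316 CPM in libraries labelled Hmga2 and 2.28 ± 0.186 CPM in vector libraries (SD, n = 3 each). The gene nearest to 0 was at 387 ± 98 CPM in libraries labelled Hmga2 and 553 ± 204 CPM in vector libraries (SD, n = 3 each), and its groups overlapped. All 9 summed to 2980 to 4854 CPM in the libraries labelled Hmga2 and 4380 to 9303 CPM in the vector libraries. Ly6g did not pass the count filter. It was at 0.141, 0.0658 and 0 CPM in libraries labelled Hmga2, against 0.032, 0.42 and 0.0403 CPM in vector libraries, so its groups overlapped. Of 10 erythroid genes, 7 were below 0 (median -0.59), with sums of 615.9 to 1256 CPM in libraries labelled Hmga2 and 1068 to 1470 CPM in vector libraries. DESeq2 passed 3 of the granulocyte and 2 of the erythroid genes, all with lower levels in the libraries labelled Hmga2 (background 0.371%). Of 8 tested B and plasma cell genes 7 were below 0, and DESeq2 passed 1, also with a lower level. These 8 summed to 190.9 to 497.3 CPM in libraries labelled Hmga2 and 222.6 to 1075 CPM in vector libraries. Of 10 LSK sort and stem cell markers, which did not all lean 1 way, 8 were above 0, the lowest of these 8 rounding to 0.00. Their median was 0.21, with a range of -0.23 to 0.45, and 0 passed in either tool. Kit had a log2 fold change of 0.28 and Ly6a of -0.23. The 10 summed to 1951 to 2040 CPM in libraries labelled Hmga2 and 1557 to 1823 CPM in vector libraries. Of 6 megakaryocyte genes 6 were above 0 (median 0.26), with sums of 578.1 to 795.2 CPM in libraries labelled Hmga2 and 479 to 807.8 CPM in vector libraries. Of 16 proliferation genes 9 were below 0, with a median of -0.01 and sums of 5276 to 5759 CPM in libraries labelled Hmga2 and 5099 to 5693 CPM in vector libraries. Igha stood above 1000 CPM in 3 libraries, Hmga2 replicate 2 and vector replicates 1 and 3. Between those, the members' median log2 difference was -0.31, with 36 of 36 below 0, and between the others (Hmga2 replicates 1 and 3 and vector replicate 2) it was -0.12, with 32 of 36 below 0. Each of these splits has 1 library on a side and carries no test, and the first holds Hmga2 replicate 2, the lowest library for most members. The summed level of 4 Y-linked genes was 192, 5.27 and 127 CPM in Hmga2 replicates 1, 2 and 3, against 5.44 to 21.5 CPM in the vector libraries. With a term for the 2 libraries above 100 CPM, which leaves Hmga2 replicate 2 alone against the vector libraries, the members' median was -0.35 and all 36 were below 0, yet 0 passed (smallest adjusted p = 0.997, edgeR). The part of stem, megakaryocyte, granulocyte, erythroid and immunoglobulin-producing cells in the differences was not tested, and the Y-linked level cannot be told apart from the label in 2 of the 3 libraries labelled Hmga2.

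**Figure D5:**
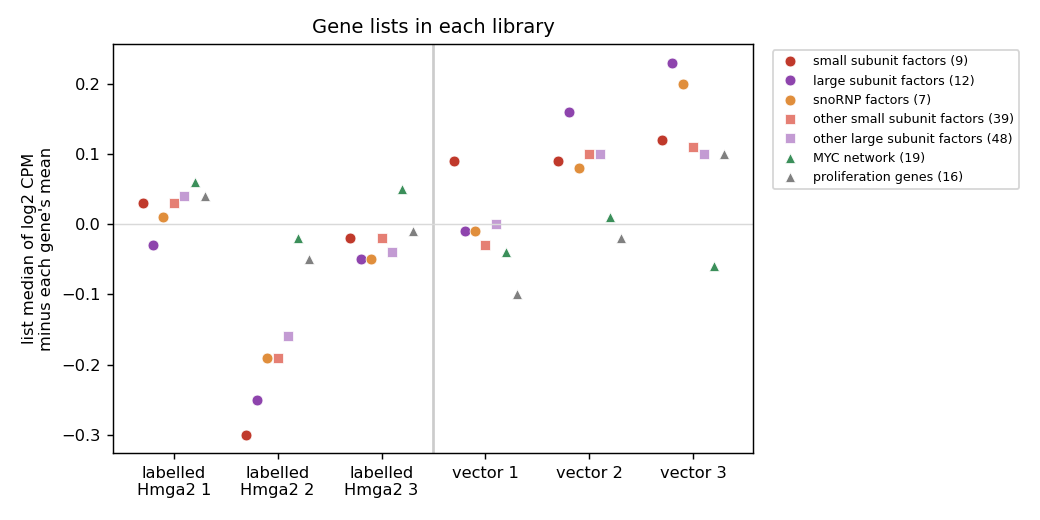
Median level of each gene list in each library, as log2 CPM relative to the mean of each gene, with the number of genes in brackets. Small-subunit factors were at -0.30 and large-subunit factors at -0.25 in Hmga2 replicate 2, while the MYC network stayed between -0.06 and 0.06.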

How the data were processed

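RNA from sorted LSK cells of 6 libraries was analysed, grouped and numbered by their titles. The files deposited by the authors hold estimated counts for each gene symbol, as judged from the numbers themselves: none was negative, 67.3% to 70.1% of those above 0 were whole within 1e-06, and totals differed. Partek 3.0, Bowtie2 and the mm10 build are named per the submitters' processing notes; the sources used here do not give the counter, annotation or strand setting. The labels call the samples biological replicates, and no 2 libraries of a group agreed within sampling noise. Separate animals are not stated, so p-values measure the spread between these samples.

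Counts were rounded and fitted with edgeR 4.0.16 in R 4.3.3 on group alone after filterByExpr and TMM scaling, with p-values adjusted over all genes tested; log2 CPM used a prior count of 2. At these depths 3 reads equal 0.0846 to 0.121 CPM, for counting error only. DESeq2 1.42.0 was the other tool. In 1 draw of simulated counts both found changed genes in the right direction. Whether they find differences as small as those of the members was not tested. Among the genes they called in that draw, the share of unchanged ones was above the 0.05 threshold. That share was higher for DESeq2 than for edgeR. Medians and counts of lists carry no test. All 36 members, up to 4 genes with the smallest p-values of each companion list, and the genes of the label checks could be named; sort-defining markers and markers at 0 could be named too. Igha falls outside this and was picked with its values known, and so were the sequences other than that of Nop2, since the rule asked for an E-box before the start. The members, lists, naming rule and alternatives were chosen with earlier results of these data known. Names, positions and exon lengths are from GENCODE M21 and RefSeq, both on the authors' build. Of 34 promoter windows of members, 33 ended in 20 bases found in a GENCODE transcript of the gene.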

Additional observations from a re-analysis of the deposited data

How the results depend on the processing

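In every alternative run, 0 of the 36 genes passed the adjusted threshold. Over all genes, 1 passed without the count filter and 71 with DESeq2, against 0 in edgeR as reported and in the other alternatives. The members' median of -0.18 was -0.35 once a Y-linked term was added, -0.22 with one for immunoglobulin-rich libraries, -0.16 with library totals only and -0.23 to -0.11 with each library left out. With the Y-linked term, medians were 0.01 for the MYC network, -0.23 for the other small-subunit and for the other large-subunit factors, -0.21 for the other snoRNP factors and -0.20 for nucleotide synthesis; without Hmga2 replicate 2 that of the other polymerase I genes was -0.02. With each library left out, these medians ran from 0.05 to 0.11, -0.16 to -0.06, -0.16 to -0.07, -0.14 to -0.06, -0.12 to -0.05 and -0.12 to -0.02, in that order. The log2 fold change of Hmga2 was 0.14 with the Y-linked term and -0.49 to 0.06 with each library left out.

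Of 540 values of single members under an alternative, 528 kept their sign, and the 12 others belonged to 5 genes. Myc was at -0.20 with the Y-linked term, -0.08 with the immunoglobulin term and -0.14 to 0.11 with each library left out. Mycn was at -0.04 with the Y-linked term and -0.13 to 1.26 with each library left out. Utp20, Dkc1 and Ddx21 ran from -0.11 to 0.08, -0.13 to 0.04 and -0.21 to 0.03. The cause was not tested. The replicate numbers gave no sign of pairing. Same-numbered libraries had correlations of -0.21, -0.50 and -0.26 between their deviations from the group means, and no library correlated best with its own number. With 3 libraries in each group, this check cannot exclude a pairing that the labels do not state. With the replicate block the members' median was -0.19, 0 genes passed, and 719 genes had an unadjusted p under 0.05, against 935 without it; among the 36 these were 5, against 10.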
